A study of Mus musculus with 6 samples.

Results

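Alveolar type 1 cells are the broad, thin epithelial cells across which gas passes between air and blood, and they are told apart from other lung cells by a small set of transcripts. The genes described are Ager, Pdpn, Aqp5, Emp2, Clic5, Rtkn2, Akap5 and Hopx, all used as markers of that cell, with the caveolins left out. They were taken as every probe set whose annotation gives exactly 1 gene symbol and that symbol is one of the 8, which found 17 of 45037 probe sets and 8 of 18193 genes. Where a gene had several probe sets, the brightest on average stands for it, and the others are given beside it.

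RNA was measured on 6 arrays, from mouse tumours that model small cell lung cancer, a cancer of neuroendocrine cells. The tumours of all 3 mice had engineered deletions of Rb, p53 and p130, on a mixed C57BL/6;129Sv/J background. The mice were given adenovirus that carries Cre recombinase and gave tumours 6 to 7 months later, with no further treatment. Mice 1127, 920 and 0107 each gave a sample sorted as tumour-propagating cells (TPCs) and a sample sorted as non-TPCs, from cells stained for CD24, CD44 and EpCAM. Both fractions thus share the tumour genotype label, the virus and the background. Whether every sorted cell carried the deletions was not tested. The sources used here do not state the gates, the age of the mice, the promoter that drives Cre or whether several tumours of a mouse were pooled. Of the neuroendocrine transcripts that mark the tumour cells, Chga was between 9.67 and 11.91 and Insm1 between 10.61 and 12.36 on all 6 arrays, while Syp was between 6.72 and 8.02, around the median level of all genes, 6.91. Values are RMA signals on a log2 scale, differences are TPC minus non-TPC, and 1 unit is a doubling. The number of arrays, 3 per fraction, limits the precision.

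As background, an alveolar type 1 cell is reached from embryonic progenitors or, after injury, from alveolar type 2 cells, the cuboidal cells that make surfactant, and the factors NKX2-1 and YAP and TAZ with their TEAD partners act in that step. The markers sit at different places in the cell. Ager encodes the receptor for advanced glycation end products, Pdpn podoplanin, a mucin-like surface protein, Aqp5 a water channel, Emp2 a small protein with several membrane-spanning segments, and Clic5 a chloride intracellular channel family protein bound to the actin cortex. Rtkn2 encodes an effector of small GTPases, Akap5 a scaffold that holds protein kinase A at membranes, and Hopx a homeodomain protein that does not bind DNA. Several of them are also made elsewhere, such as Pdpn in lymphatic endothelium, mesothelium and fibroblasts, Clic5 in endothelium and Akap5 in neurons.

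The start-site sequences of the 3 genes whose TPC and non-TPC arrays did not overlap, Clic5, Pdpn and Ager, are printed with both Hopx windows, which held the only motif found. They are RefSeq windows of build GRCm38.p6, from 250 bases before the annotated start to 50 bases after it, on the gene's own strand, and capitals mark a motif.
Clic5, chr17:44188322-44188621, plus strand: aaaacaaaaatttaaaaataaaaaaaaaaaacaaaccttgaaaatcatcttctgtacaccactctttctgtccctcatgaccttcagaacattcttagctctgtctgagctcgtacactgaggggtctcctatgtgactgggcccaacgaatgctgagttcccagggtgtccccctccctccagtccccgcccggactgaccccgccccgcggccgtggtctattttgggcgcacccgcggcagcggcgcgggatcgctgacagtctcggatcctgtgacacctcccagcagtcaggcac
Pdpn, chr4:143299515-143299814, minus strand: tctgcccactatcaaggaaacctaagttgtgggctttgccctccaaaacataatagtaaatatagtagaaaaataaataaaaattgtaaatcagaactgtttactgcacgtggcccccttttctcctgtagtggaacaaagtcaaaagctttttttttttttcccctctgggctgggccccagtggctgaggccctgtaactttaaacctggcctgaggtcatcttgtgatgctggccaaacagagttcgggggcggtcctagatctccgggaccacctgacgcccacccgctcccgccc
Ager, chr17:34597600-34597899, plus strand: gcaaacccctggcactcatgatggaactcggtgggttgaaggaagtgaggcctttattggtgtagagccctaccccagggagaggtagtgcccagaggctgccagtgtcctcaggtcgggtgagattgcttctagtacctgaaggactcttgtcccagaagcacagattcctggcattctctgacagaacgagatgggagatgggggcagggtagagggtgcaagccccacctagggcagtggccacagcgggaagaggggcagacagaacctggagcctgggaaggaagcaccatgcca
Hopx, chr5:77115074-77115373, minus strand: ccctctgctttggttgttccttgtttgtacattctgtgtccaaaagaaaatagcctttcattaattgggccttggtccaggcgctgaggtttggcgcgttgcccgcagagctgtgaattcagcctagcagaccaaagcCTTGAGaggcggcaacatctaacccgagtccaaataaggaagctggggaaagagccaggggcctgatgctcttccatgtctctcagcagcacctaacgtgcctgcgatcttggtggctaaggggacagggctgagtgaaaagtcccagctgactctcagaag
Hopx, chr5:77095218-77095517, minus strand: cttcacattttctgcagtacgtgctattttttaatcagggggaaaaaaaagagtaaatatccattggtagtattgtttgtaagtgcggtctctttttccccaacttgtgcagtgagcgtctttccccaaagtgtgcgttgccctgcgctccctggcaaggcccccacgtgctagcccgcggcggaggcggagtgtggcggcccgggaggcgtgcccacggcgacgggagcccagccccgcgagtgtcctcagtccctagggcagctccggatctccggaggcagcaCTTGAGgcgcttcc
The windows were searched on both strands for GGAATG, the core of TEAD sites, and for CTCAAG, a core of NKX2-1 sites, which do not overlap each other here. Windows were found for 7 of the 8 genes, 8 windows in all, and not for Rtkn2. GGAATG was in 0 of the 8 windows, and 14.7% of all 32851 windows hold it. CTCAAG was in 2 of 8, both of them Hopx windows, where it reads CTTGAG on the printed strand, and 15.9% of all windows hold it. In the first Hopx window it begins 112 bases before the start and in the other 36 bases after it. The base composition of the windows ranged from 48.7% G and C in Pdpn to 79.7% in Aqp5, and the median over all windows was 52.7%.

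Transcripts of alveolar type 1 cells were lower in TPCs for 6 of the 8 genes by the mean and did not pass the test for any of them. Clic5 differed by -2.33, Ager by -1.73, Aqp5 by -1.42 and Pdpn by -1.34, each lower in TPCs of 3 of 3 mice. Hopx and Emp2 were lower in TPCs of mice 1127 and 920 and higher in those of mouse 0107, while Rtkn2 and Akap5 differed by 0.20 and 0.06. In limma with Benjamini-Hochberg adjustment over 18193 genes, 0 of 8 members passed an adjusted p of 0.05, where 0.0605% of all genes passed as lower and 0% as higher. At an unadjusted p under 0.05, 3 members were lower and 0 higher, and the share of all genes was 4.35% lower and 2.12% higher. All TPC arrays lay below all non-TPC arrays for 3 of 8 members, against 5.91% of all genes, and above them for 0 of 8, against 6.71%. Of the 8, 4 were lower in TPCs of all 3 mice, against 13.8% of all genes. The median difference was -0.93 over the members and 0.04 over all genes. Fitting the mouse as a replicate block called 0 of 8 members, against 0.0715% of all genes, and put 4 of 8 at an unadjusted p under 0.05, against 6.23%. A random block also called 0 of 8, against 0.214%. These are bulk samples, in which fewer cells of a type and less RNA per cell cannot be told apart.

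**Figure D1:**
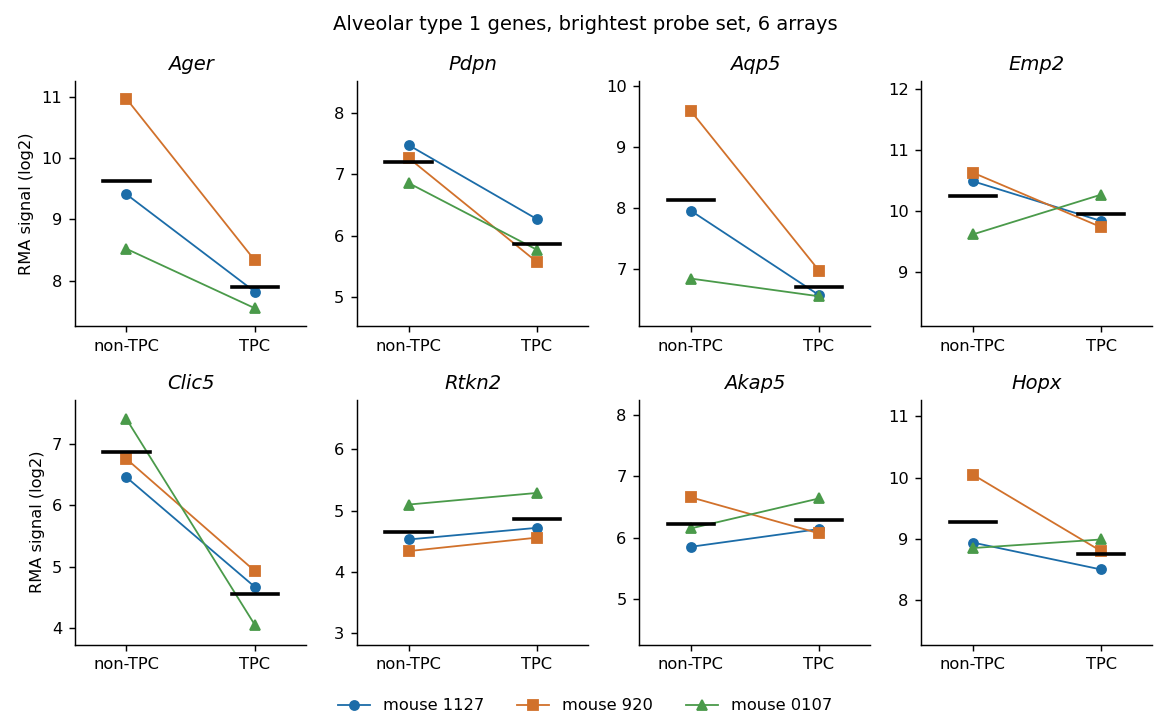
RMA signal (log2) of the 8 genes in the non-TPC and TPC array of each mouse, lines joining the arrays of a mouse and black bars the fraction means, with every panel spanning the same number of log2 units. Clic5, Pdpn and Ager separate the fractions with no overlap, and Rtkn2 and Akap5 do not.

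Ager, a receptor widely used as a marker of this cell, stood at 7.82, 8.33 and 7.55 in TPCs of mice 1127, 920 and 0107 and at 9.41, 10.97 and 8.52 in their non-TPCs. The fractions did not overlap, and the non-TPC array of mouse 920 was the highest. The difference was -1.73 (SE 0.59, 95% interval -3.15 to -0.31, limma adjusted p = 0.655), a signal 3.32 times as high in non-TPCs. Within the mice it was -1.59, -2.64 and -0.97 in the same order. Leaving out the mouse 920 non-TPC array gave -1.06. A second Ager probe set, 1420428_at, differed by -0.69 and was lower in TPCs of 3 of 3 mice by 0.20, 1.44 and 0.43, with the fractions overlapping. The probe set that represents Ager carries the suffix _s_at, which the array's maker gives where probes can match several transcripts.

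Pdpn, the surface sialoglycoprotein podoplanin, stood at 6.27, 5.57 and 5.77 in TPCs of mice 1127, 920 and 0107 and at 7.48, 7.27 and 6.86 in non-TPCs. No TPC array reached the lowest non-TPC array, and the mice differed little within a fraction, by a range of 0.70 in TPCs and 0.62 in non-TPCs. The difference was -1.34 (SE 0.24, 95% interval -1.92 to -0.76, limma adjusted p = 0.253), or 2.53 times as high in non-TPCs. The within-mouse differences were -1.21, -1.71 and -1.09, the most even among the 4 members that were lower in all mice. In the fit with a replicate block, where the mouse is a term and its arrays are set against each other, the SE was 0.17 and the adjusted p 0.0988.

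Aqp5, the apical water channel, was at 6.58, 6.98 and 6.56 in TPCs of mice 1127, 920 and 0107 and at 7.96, 9.59 and 6.85 in non-TPCs. The TPC arrays lay close together, and the non-TPC arrays spread over 2.74 units, with that of mouse 0107 below the TPC array of mouse 920. The difference of -1.42 (SE 0.64, 95% interval -2.95 to 0.10, limma adjusted p = 0.795) came to -0.70 when the mouse 920 non-TPC array was left out and -0.83 when both of its arrays were. Within the mice Aqp5 differed by -1.38, -2.61 and -0.28. In the replicate block fit its SE was 0.44, with a 95% interval of -2.54 to -0.31 and a limma adjusted p of 0.394.

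Emp2, epithelial membrane protein 2, was bright on every array, at 9.84, 9.74 and 10.27 in TPCs of mice 1127, 920 and 0107 and 10.49, 10.63 and 9.62 in non-TPCs. The fractions overlapped, since mouse 0107 had its higher value in TPCs. The difference of -0.30 (SE 0.30, 95% interval -1.01 to 0.42, limma adjusted p = 0.912) was made of -0.65, -0.89 and 0.65 within the mice, and it was -0.77 without mouse 0107. The second probe set, 1425272_at, had the same pattern, with -0.75, -0.72 and 1.23. The third, 1425273_s_at, stayed between 6.37 and 6.56 on all arrays.

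Clic5, which links the membrane to the actin cortex, had the largest difference of the 8. It was at 4.67, 4.93 and 4.05 in TPCs of mice 1127, 920 and 0107 and at 6.46, 6.76 and 7.41 in non-TPCs. The fractions were apart in every mouse, and mouse 0107 had both the lowest TPC and the highest non-TPC value. The difference was -2.33 (SE 0.32, 95% interval -3.09 to -1.56, limma adjusted p = 0.117), or 5.02 times as high in non-TPCs, and by unadjusted p Clic5 ranked 33 of 18193 genes. Within the mice it was -1.79, -1.83 and -3.36. The adjusted p was 0.145 with the replicate block and 0.0578 with a random block, in which the mouse enters through an estimated correlation.

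The Clic5 probe sets differed among themselves. The probe sets 1439505_at and 1458381_at were also lower in TPCs of 3 of 3 mice, the former by 0.54, 0.51 and 0.52 in mice 1127, 920 and 0107 and the latter by 0.33, 0.81 and 0.76, while 1431261_at stayed between 3.26 and 3.47. With the 4 probe sets averaged the Clic5 difference was -0.86 (limma adjusted p = 0.342). The TPC values of the representing probe set lay around the first quartile of the arrays, which was 4.52 to 4.65, so the size of its difference rests on dim signal.

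Rtkn2, the small GTPase effector, was dim, at 4.72, 4.56 and 5.29 in TPCs of mice 1127, 920 and 0107 and 4.53, 4.34 and 5.10 in non-TPCs. It was higher in TPCs of all 3 mice by 0.19, 0.22 and 0.20, as were 19.8% of all genes, and the mice differed more than the fractions (difference 0.20, SE 0.27, 95% interval -0.45 to 0.85, limma adjusted p = 0.928).

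Akap5, the kinase scaffold, was at 6.14, 6.07 and 6.64 in TPCs of mice 1127, 920 and 0107 and 5.85, 6.66 and 6.15 in non-TPCs, with no common direction. Its difference was 0.06 (95% interval -0.55 to 0.68, limma adjusted p = 0.973), and its other probe sets differed by -0.07 and by less than 0.01 in size. Hopx, the homeodomain protein, was at 8.50, 8.80 and 8.99 in TPCs and 8.94, 10.05 and 8.85 in non-TPCs of the same mice. The non-TPC array of mouse 920 stood above the other 5, and without it the difference of -0.52 (SE 0.34, 95% interval -1.33 to 0.29, limma adjusted p = 0.878) was -0.13. A second Hopx probe set, 1451776_s_at, differed by -0.17, -0.35 and 0.26 in mice 1127, 920 and 0107.

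**Figure D2:**
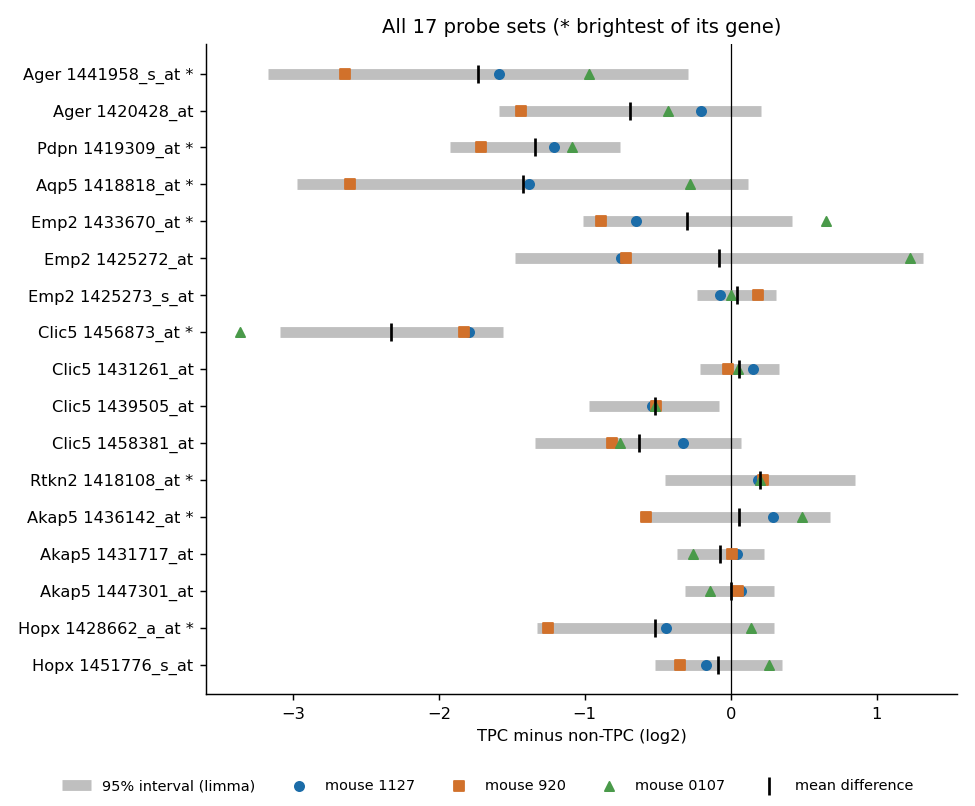
TPC minus non-TPC difference (log2) of all 17 probe sets in each mouse (coloured points), with the mean (black tick) and its 95% limma interval (grey bar), and a star on the brightest probe set of each gene. The intervals of Pdpn, of 1 Ager and of 2 Clic5 probe sets lie below 0.

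Over the 17 probe sets, each tested among all 45037, 0 passed an adjusted p of 0.05 in limma (smallest adjusted p = 0.154), where 0.0244% of all probe sets passed as lower and 0% as higher. At an unadjusted p under 0.05, 4 of 17 were lower and 0 higher, against 3.44% and 2.02% of all probe sets. The TPC arrays lay below all non-TPC arrays in 4 of 17, against 5.08%, and above them in 0, against 6.5%, and 7 of 17 were lower in all 3 mice, against 12.5%. The median difference was -0.30 over the 17 and 0.04 over all probe sets. The replicate block called 0 of 17, against 0.02% of all probe sets, with 7 of 17 at an unadjusted p under 0.05, against 5.18%, and the random block called 0 of 17, against 0.115%.

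The mice differed in how far the alveolar type 1 genes were apart between fractions. In mouse 1127, 6 of 8 genes were lower in TPCs, as were 40.7% of all genes, with a median of -0.93. In mouse 920, 7 of 8 were lower, against 42.1%, with a median of -1.48. In mouse 0107 it was 4 of 8, near the 53.6% of all genes, with a median of -0.07. The medians over all genes were 0.07, 0.05 and -0.03. The mean of the 8 genes, each centred on its own mean, was -0.50, -0.45 and -0.43 in TPCs and 0.32, 0.96 and 0.10 in non-TPCs of mice 1127, 920 and 0107, so the spread between mice was in the non-TPC arrays. The median difference of the 8 was -0.41 with the mouse 920 non-TPC array left out, and -0.49 with both arrays of that mouse left out. Each mouse gave 1 array per fraction, so the difference between mice was not tested.

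**Figure D3:**
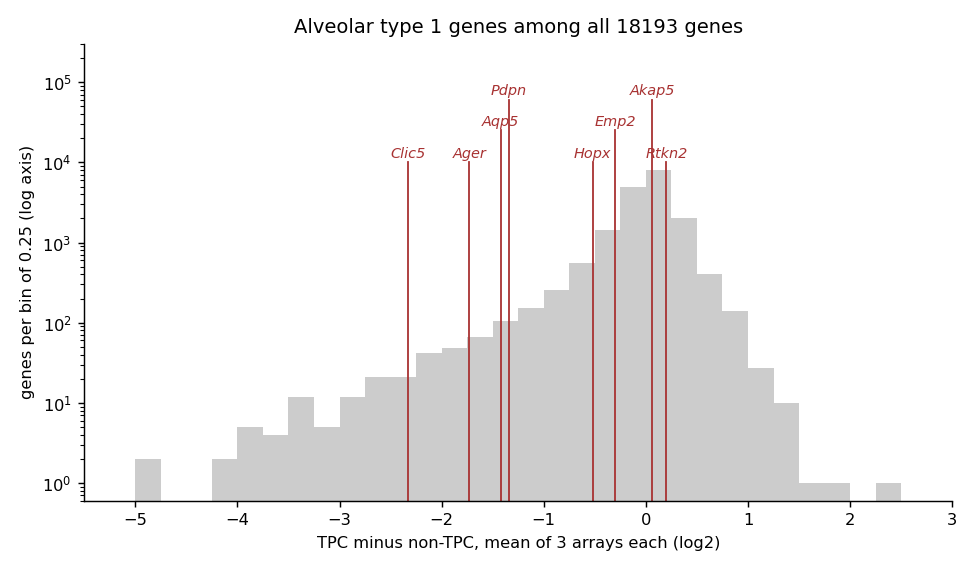
Histogram of the TPC minus non-TPC difference (log2, mean of 3 arrays each) of all 18193 genes, with the number of genes per bin on a log axis and red lines at the 8 alveolar type 1 genes. Clic5, Ager, Aqp5 and Pdpn lie below -0.65, the fifth percentile of all genes, and the other 4 lie above it.

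Other genes of the alveolar type 1 cell gave a mixed picture of the same kind. Of 19 measured genes, 12 were lower in TPCs by the mean and 0 passed in limma, where 0.0605% of all genes passed as lower. At an unadjusted p under 0.05, 6 were lower and 0 higher, against 4.35% and 2.12% of all genes. Of the 19, 10 were lower in TPCs of all 3 mice, against 13.8% of all genes. The median difference of the 19 was -0.48, with -0.49, -0.84 and -0.25 in mice 1127, 920 and 0107. Anxa3, an annexin, differed by -2.85 (limma adjusted p = 0.292), Agrn, the basement membrane proteoglycan agrin, by -0.95 (0.384), Pxdc1 by -0.79 (0.2) and Cyp2b10, a cytochrome P450, by -0.79 (0.574). Others were higher in TPCs by the mean, namely Krt7 by 0.52, Igfbp2 by 0.45 and Lmo7 by 0.44. Spock2 (0.30), Sema3e (0.28), Scnn1a (0.26) and Col4a3 (0.10) were higher as well. Gramd2a was not analysed here. The caveolins, coat proteins of membrane pits that endothelium and fibroblasts also make, differed by -3.48 in Cav1 (limma adjusted p = 0.0781) and -0.74 in Cav2 (0.549). In limma the adjusted p of Cav1 was 0.0373 in the random block fit, which passed, and 0.0964 in the replicate block fit, which did not.

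Of 10 regulators of alveolar type 1 fate, 0 passed in limma, where 0.0605% of all genes passed as lower, and the median was -0.14. At an unadjusted p under 0.05, 4 were lower and 0 higher, against 4.35% and 2.12% of all genes. All TPC arrays lay below all non-TPC arrays for 3 of the 10, against 5.91% of all genes. Yap1 and Wwtr1, which encode YAP and TAZ, were lower in TPCs of 3 of 3 mice. Yap1 values were 5.82, 5.85 and 5.61 in TPCs and 7.31, 7.29 and 6.49 in non-TPCs of mice 1127, 920 and 0107 (difference -1.27, limma adjusted p = 0.275). Wwtr1 values were 5.07, 6.90 and 5.42 in TPCs and 8.82, 9.05 and 6.93 in non-TPCs (difference -2.47, limma adjusted p = 0.553). Gata6, a zinc finger factor, differed by -0.72 and was lower in all 3 mice. Bmp4, a secreted ligand, differed by -1.33 and was higher in TPCs of mouse 0107 by 0.10. Other regulators leaned the other way, with the forkhead factor Foxa2 at 0.64, higher in TPCs of 3 of 3 mice, and the Krüppel-like factor Klf5 at 0.91, higher in 2 of 3 and by 2.69 in mouse 0107. Nkx2-1 was between 5.42 and 5.74 on all arrays, with no difference at the printed precision.

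Markers of several other cells of the lung had lower medians in TPCs as well. The alveolar type 2 list had 2 of 10 measured genes past the test, where 0.0605% of all genes passed as lower, and a median of -1.08. Both were lower in TPCs, Sftpa1 (limma adjusted p = 0.00374) and Sftpc (0.0238). With the replicate block Sftpa1 passed (0.0286) and Sftpc did not (0.051). Its summed signal on the linear scale was 3149 to 3370 in TPCs and 7813 to 13447 in non-TPCs, with the highest value in mouse 920, as for the alveolar type 1 genes, whose sum was 1798 to 2233 in TPCs and 3206, 5802 and 2120 in non-TPCs of mice 1127, 920 and 0107. Emp2 made up 27.2% to 55.2% of that last sum, and without it the sum was 883 to 1065 in TPCs and 1767, 4222 and 1335 in non-TPCs. The club cell list, of secretory airway cells, had 0 of 7 past the test and 7 of 7 lower in all mice, against 13.8% of all genes. The club cell sum was 10989 to 23827 in TPCs and 15339 to 62136 in non-TPCs, again highest in mouse 920. In limma Bpifa1, a secreted airway protein, passed with the replicate block (adjusted p = 0.0286) and not with the random block (0.0578). The lectin Reg3g passed with the random block (limma adjusted p = 0.0391) and not with the replicate block (0.102).

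Lists of cells outside the epithelium, some of which also make Pdpn or Clic5, differed in which mouse had the highest non-TPC sum. Among non-TPC arrays, Clic5 itself was highest in mouse 0107 (7.41) and Pdpn in mouse 1127 (7.48). The mesothelial list had 1 of 6 genes past the test, Gpm6a (limma adjusted p = 0.0338), where 0.0605% of all genes passed as lower. The list sum was 198 to 225 in TPCs and 569, 593 and 996 in non-TPCs of mice 1127, 920 and 0107. Gpm6a carried 5.0% to 77.8% of that sum. Without Gpm6a the sum was 188 to 210 in TPCs and 331, 310 and 222 in non-TPCs of the same mice. The blood endothelial list had 0 of 11, with 1639 to 2286 in TPCs and 2874, 2131 and 2534 in non-TPCs, and its median was -0.56, -0.06 and -1.61 in the same mice. Vwf, the von Willebrand factor gene, carried 35.4% to 80.6% of that sum and differed by -0.03, and without it the sum was 398 to 444 in TPCs and 827, 447 and 1638 in non-TPCs. In mouse 0107, where Clic5 was most apart, the endothelial tight junction gene Cldn5 read 5.20 in TPCs and 9.03 in non-TPCs. In that mouse Cdh5 differed by -2.34, Tek by -2.04, Egfl7 by -1.72, Kdr by -1.62 and Car4 by -1.61. Smaller differences were those of Emcn (-0.62), Ednrb (-0.36), Tie1 (-0.26) and Pecam1 (-0.18), and Vwf was higher in TPCs by 0.50. Pecam1 was dim, between 4.01 and 4.33 on all arrays, below their first quartile of 4.52 to 4.65. In mouse 920, where the endothelial median was -0.06, Clic5 differed by -1.83. The lymphatic list had 0 of 5, with sums of 952 to 1792 in TPCs and 899 to 1417 in non-TPCs, of which Prox1, a homeobox gene bright in both fractions, carried 61.2% to 92.7%. Without Prox1 the sum was 127 to 136 in TPCs and 194, 152 and 550 in non-TPCs. Lyve1, a hyaluronan receptor, was at most 3.80 in TPCs and at 6.35, 5.0 and 7.98 in non-TPCs, and Mmrn1 differed by -1.36, while Prox1 and Flt4 differed by 0.43 and 0.12. The fibroblast list had 0 of 7, with 1498 to 3246 in TPCs and 21269, 6252 and 3524 in non-TPCs. The proteoglycan gene Dcn carried 67.8% to 94.2% of it, and without Dcn the sum was 185 to 195 in TPCs and 6842, 936 and 604 in non-TPCs. The macrophage and leukocyte list had 0 of 7, with 392 to 648 in TPCs and 903 to 1471 in non-TPCs, highest in mouse 920, and its actin-bundling gene Lcp1 passed in limma with the replicate block (adjusted p = 0.0333) and the random block (0.0467). The part of any of these cells in the differences of the alveolar type 1 genes was not tested.

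The remaining lists had medians near or above 0. Over all genes, 0.0605% passed the test as lower and 0% as higher. The neuroendocrine list had a median of 0.28 over 6 genes, with 0 past the test, and sums of 8831 to 13860 in TPCs and 7898 to 9204 in non-TPCs. The ciliated cell list had a median of -0.06, with 0 of 6 past the test and sums of 826 to 892 and 801 to 1295. The T cell list, which matters for Rtkn2 because T cells make it too, had a median of 0.03, with 0 of 6 past the test, sums of 330 to 349 in TPCs and 308 to 347 in non-TPCs, and Cd3e between 6.05 and 6.44 on all arrays.

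**Figure D4:**
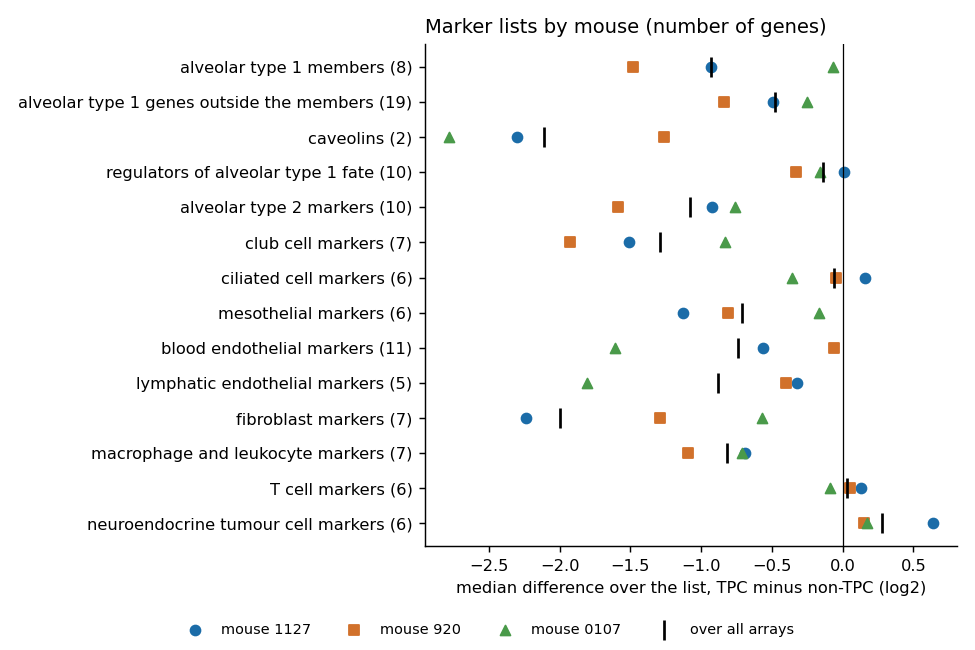
Median TPC minus non-TPC difference (log2) of each gene list in each mouse (coloured points) and over all arrays (black tick), with the number of measured genes in brackets. The alveolar type 1, alveolar type 2, club cell, and macrophage and leukocyte medians are farthest below 0 in mouse 920. Those of the endothelial lists are farthest below 0 in mouse 0107 and that of fibroblasts in mouse 1127.

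Genes whose pattern over the 6 arrays was most like the mean of the 8 were sought among the 4500 other genes that ranged over at least 1 log2 unit. The closest were Mmp8, a neutrophil collagenase, with a Pearson r of 0.994, Vamp5, a vesicle fusion protein, with 0.992, B3gnt5, a glycosyltransferase, with 0.990, Napsa, the aspartic protease of alveolar type 2 cells, with 0.988, and Ltf, lactotransferrin, with 0.988. Of the 4500 genes, 1.04% reached 0.95, and the arrays share 3 mice and 2 fractions. For single members the closest 2 were Rest and Slpi for Ager (0.998 and 0.994), Flna and Mgp for Pdpn (0.988 and 0.985), Slpi and Gsta3 for Aqp5 (both 0.992) and Ttc14 and Epas1 for Clic5 (both 0.979). They were Helz2 and Cacna2d4 for Emp2 (both 0.988), Sbno2 and Avpi1 for Hopx (0.997 and 0.992), Chchd6 and Pou2af1 for Rtkn2 (0.992 and 0.991) and BC080696 and 1700009N14Rik for Akap5 (0.897 and 0.891). Slpi, a secreted protease inhibitor of airway epithelium, was shared by Ager and Aqp5.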

How the data were processed

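RNA from cells sorted into Trizol was labelled with the Affymetrix WT Plus kit, per the labels' protocols. The probe annotation is that of a 3′ expression array, and the sources used here do not say how this whole-transcript kit was used with it. The authors deposited log2 probe set signals for which the submitters' processing notes name RMA, a method that subtracts background, quantile normalises and summarises probes. Its version and log base are not stated in the sources used here, so log2 was taken from the range, 2.70 to 14.81. Array medians were 6.00 to 6.04. Of 45101 probe sets, 64 controls were left out. Symbols came from the platform annotation, updated to GRCm38.p6 RefSeq names, and probe sets with several genes were not named. limma 3.58.1 (R 4.3.3, lmFit and eBayes, two-sided) compared the fractions, with fraction as the only term and Benjamini-Hochberg adjustment over all genes or all probe sets. The procedure was tested on simulated data.

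The mouse pairs the samples: after subtraction of the fraction means, the pair of arrays of a mouse correlated at 0.30, 0.46 and 0.36 in mice 1127, 920 and 0107, and at most at -0.08 between mice. The subtraction makes the deviations of a fraction sum to 0. Values between mice are thereby pushed below 0 when those within mice are positive, and are not separate evidence. In the main fit the p-values set a difference against the spread between 3 mice within a fraction, without the pairing. In the replicate block fit they set it against the spread of the within-mouse differences. Every member is named, as are up to 4 genes of smallest p of the other lists where described, and closest genes were taken by Pearson r. Cldn5, Pecam1, Lyve1, Mmrn1, Prox1, Flt4, Vwf, Dcn, Foxa2, Klf5, Krt7, Lmo7, Cd3e, Chga, Insm1, Syp and Nkx2-1 were named after their values were seen where they fall outside that rule, and the sums without the brightest gene of a list were added after seeing the data. Egfl7, Car4, Emcn, Ednrb, Tie1, Igfbp2, Spock2, Sema3e, Scnn1a and Col4a3 were likewise named after their values were seen. Members and lists were chosen with earlier results of these data known. Lamp3, Ccl21a and some neuroendocrine genes were not used here.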

Additional observations from a re-analysis of the deposited data

How the results depend on the processing

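No member gene or probe set passed under any alternative run: 0 of 8 genes and 0 of 17 probe sets with the mouse as a replicate block (smallest limma adjusted p 0.0988 and 0.133) or as a random block (0.0578 and 0.0835), after centring each array, with a mean-variance trend, above the median level alone (4 genes and 10 probe sets left), with all probe sets of a gene averaged (genes alone), or without any 1 mouse or array (smallest 0.0561 and 0.0904). At an unadjusted p under 0.05 the replicate block had 4 of 8 genes and 7 of 17 probe sets lower, and leaving out a mouse or array 2 to 5 genes. Calls were rare over all features too, from 0 (0%, without mouse 1127) to 84 of 18193 genes (0.462%, with the mouse 0107 non-TPC array left out). At an unadjusted p under 0.05, 2.2% to 6.67% of all genes were lower when a mouse or array was left out. The median difference of the 8 genes ranged from -1.15 to -0.41 without a mouse or array and was -0.58 with probe sets averaged. Clic5, Ager, Pdpn, Aqp5, Hopx and Emp2 kept their sign in each alternative that kept the gene (Clic5 and Pdpn are not above the median level), though Emp2 came to -0.0005 without mouse 920. The near-zero members did not: Rtkn2 ranged from -0.01, without the TPC array of mouse 0107, to 0.42, and Akap5 was -0.004 with probe sets averaged and between -0.15 and 0.39 without a mouse or array, negative without mouse 1127 (-0.05), mouse 0107 (-0.15), the TPC array of mouse 0107 (-0.11) or the non-TPC array of mouse 1127 (-0.12). The cause was not tested. The number of arrays and dim signal in Clic5 and Rtkn2 limit what can be detected.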
